A study of Danio rerio with 4 samples.

Results

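The 3 nuclear RNA polymerases and the general transcription factors that load them onto promoters were examined in zebrafish liver. Members were all genes whose symbol in the platform's probe table begins with polr1, polr2 or polr3, with gtf2 or gtf3, or with taf and a number. The rule took 66 of 15554 genes and 100 of 43603 probes, with 28 polymerase subunits and 38 factors. It used gene names and no measured value, though the members were chosen with earlier results of these data known. Where a member had more than 1 probe, as 23 did, its probes were averaged on each array. Of these 23, 13 had all probes on one side of 0 and 10 did not.

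Liver RNA of Danio rerio was hybridised on 4 Agilent 2-colour arrays, as a trial experiment for the production of a custom array. Per the design text, the groups were 0 µM cadmium (control, biological replicates 2 and 3) and 5 µM cadmium (biological replicates 1 and 2), all at day 4. The sample labels write degrees C in place of µM beside the same numbers. Strain, sex and age are not in the labels, nor is the number of fish behind each RNA. The p-values below therefore cover only the variation among the 4 RNAs, with array noise included. Array 1 paired control 2 with cadmium 1, array 2 cadmium 1 with control 3, array 3 control 3 with cadmium 2, and array 4 cadmium 2 with control 2, so each RNA was read on 2 arrays, with Cy5 on one and Cy3 on the other.

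RNA polymerase I transcribes the large ribosomal RNA precursor in the nucleolus, polymerase II the messenger RNAs, and polymerase III the transfer RNAs and 5S ribosomal RNA. Each enzyme is built around 2 large catalytic subunits. Some small subunits are common to all 3 enzymes, and a pair is shared by polymerases I and III. Polymerase II is placed on promoters by the factors TFIIA to TFIIH and by TFIID, which consists of the TATA-binding protein and its associated factors (TAFs). Polymerase I uses SL1, another complex of TATA-binding protein and TAFs, and polymerase III uses TFIIIA, TFIIIB and TFIIIC.

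The values used were the authors' log2 dye ratios, here turned to cadmium over control on every array. The ratio was read as Cy5 over Cy3, the likely direction, because each title names the Cy5 RNA first and limma, named by the submitters, uses that convention. The opposite reading would turn every sign below, and the RNA called highest would be the lowest. Solving the loop of 4 arrays gave each gene a log2 level in each RNA, relative to the mean of the 4 RNAs, and these levels are used below. Differences are cadmium minus control with the moderated standard error (SE, 2 RNAs per group) from limma. Over all probes the ratios had standard deviations of 0.198, 0.230, 0.388 and 0.353 on arrays 1 to 4, and both wider arrays carried cadmium 2. Because the values are ratios, they do not tell whether a liver marker or a member was expressed at a high or a low level.

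No member passed the test between cadmium and control. With limma, 0 of the 66 members had an adjusted p under 0.05, as did 0% of all genes, and the adjusted p was 0.9998 for every member. At an unadjusted p under 0.05 there were 0 members, against 2.02% of all genes. The member with the smallest unadjusted p was polr2k (0.110 in limma). One member, gtf3ab, had a difference of at least 0.5 in size (1.52% of members), where 3.26% of all genes did.

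Most members nevertheless had a mean above 0. The difference was above 0 in 55 of 66 members (83.3%), compared with 56.9% of all genes, and its median was 0.12 over the members and 0.017 over all genes. All 4 arrays were above 0 for 10 members (15.2%, against 7.99% of all genes) and below 0 for 2, taf3 and taf6 (3.03%, against 6.9%). Both cadmium RNAs stood above both control RNAs in 8 members (12.1%), close to the 11.7% of all genes. They stood below in 1 member, taf6 (1.52%, against 10.2%). Over the 66 members together, this excess was absent without cadmium 2, where 32 members were above 0 and 34 below, with a median of -0.0062. Subunits and factors differed in that setting. Above 0 were 19 of 28 polymerase subunits (67.9%, median 0.056) and 13 of 38 factors (34.2%, median -0.054), against 47.5% of all genes.

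**Figure D1:**
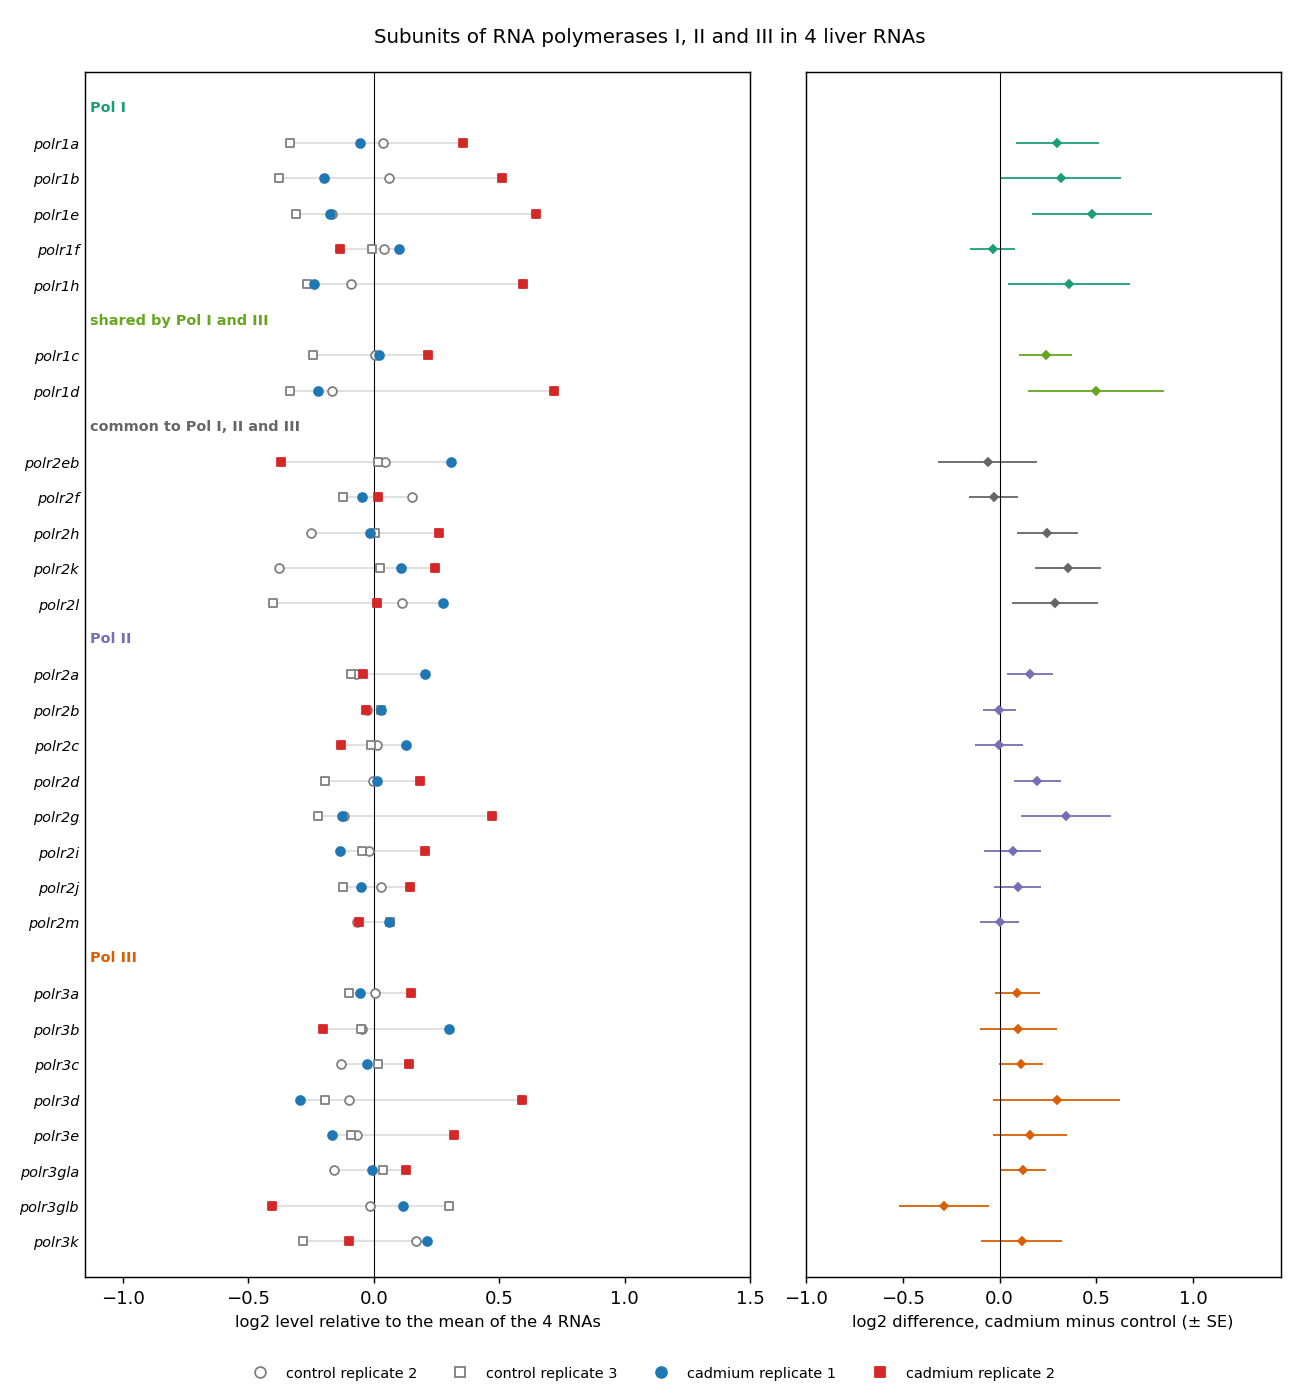
Left, log2 level of each polymerase subunit in the 4 liver RNAs, relative to their mean, by enzyme. Right, the log2 difference of cadmium minus control with its SE (2 RNAs per group). Cadmium replicate 2, the filled square, is the highest RNA in 17 of 28 subunits (60.7%, against 38.7% of all genes). Among them are 4 of 5 Pol I subunits, and polr2b lies near 0 in all 4 RNAs.

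Subunits specific to polymerase I had a median difference of 0.32 over 5 measured genes, 4 of them above 0. The catalytic subunits are encoded by polr1a and polr1b. The level of polr1a (Entrez Gene 327078) was 0.036 in control 2, -0.34 in control 3, -0.056 in cadmium 1 and 0.35 in cadmium 2. Control 2 lay above cadmium 1, so the groups overlapped, and the difference was 0.30 ± 0.21. Its 3 probes disagreed, at -0.019, 0.29 and 0.63. For polr1b (Entrez Gene 325603) the levels were 0.062, -0.38, -0.20 and 0.51 in the same order, again with control 2 above cadmium 1. The difference of polr1b was 0.32 ± 0.31, and its probes were close to each other at 0.27 and 0.36.

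Of the remaining polymerase I genes, polr1e and polr1h had cadmium 2 apart from the other RNAs. The elongation-associated subunit gene polr1e was at -0.17 in control 2, -0.31 in control 3, -0.17 in cadmium 1 and 0.65 in cadmium 2, with a difference of 0.48 ± 0.31. The small subunit gene polr1h, whose product helps in cleaving the transcript, was at -0.092, -0.26, -0.24 and 0.59, with a difference of 0.36 ± 0.31. In both, cadmium 1 lay among the controls and cadmium 2 well above them. On the other side of 0 was polr1f, which encodes a stalk subunit, at -0.036 ± 0.12, and its probes stood at -0.25 and 0.18.

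The subunits shared by polymerases I and III, which form a heterodimer needed for assembly of both enzymes, are encoded by polr1c and polr1d. The level of polr1c (Entrez Gene 393538) was 0.0047 in control 2, -0.24 in control 3, 0.019 in cadmium 1 and 0.22 in cadmium 2. Both cadmium RNAs were above both controls, by a small margin for cadmium 1, and all 4 arrays were above 0. The difference of polr1c was 0.24 ± 0.14. Its partner polr1d (Entrez Gene 445412) was at -0.17, -0.33, -0.22 and 0.72 in the same order, so that cadmium 1 lay between the controls. The difference of polr1d, 0.50 ± 0.35, was the largest among the 28 subunits.

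Subunits common to all 3 enzymes did not follow one RNA. The smallest unadjusted p of all members belonged to polr2k (Entrez Gene 796803), a zinc-binding core subunit, with levels of -0.38 in control 2, 0.024 in control 3, 0.11 in cadmium 1 and 0.24 in cadmium 2. Both cadmium RNAs were above both controls, but control 2 alone stood far below the rest. The difference of polr2k was 0.35 ± 0.17, with a 95% interval from -0.13 to 0.83. For polr2l, the other small zinc-binding subunit, the levels were 0.11, -0.40, 0.27 and 0.013, with a difference of 0.29 ± 0.22, and here control 3 was the low RNA. Without the low control each value shrank, to 0.15 for polr2k without control 2 and to 0.030 for polr2l without control 3.

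The other common subunits differed in direction. The gene polr2h was at -0.25 in control 2, 0.0047 in control 3, -0.013 in cadmium 1 and 0.26 in cadmium 2, with all 4 arrays above 0 and a difference of 0.25 ± 0.16. In contrast, polr2eb was highest in cadmium 1 (0.31) and lowest in cadmium 2 (-0.37), with both controls near 0 (0.044 and 0.017). Its difference was therefore -0.061 ± 0.25 although the cadmium RNAs were the extremes, and both probes shared this order. For polr2f the levels were 0.15, -0.12, -0.047 and 0.016, and the difference of -0.031 ± 0.13 carried probes on both sides of 0 (0.090 and -0.15).

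Subunits specific to polymerase II had a median of 0.080 over 8 genes, 6 of them above 0. The largest subunit, which carries the repeated tail that is phosphorylated during transcription, is encoded by polr2a (Entrez Gene 553347). Its level was -0.069 in control 2, -0.089 in control 3, 0.20 in cadmium 1 and -0.044 in cadmium 2. Both cadmium RNAs lay above both controls, cadmium 2 by little, and the difference was 0.16 ± 0.12 (95% interval -0.18 to 0.49). The second largest subunit gene, polr2b (Entrez Gene 100149268), was measured by 4 probes and varied little, at -0.027, 0.029, 0.029 and -0.031. The difference of polr2b was -0.0016 ± 0.085, with a 95% interval of -0.24 to 0.24.

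The stalk of polymerase II, formed by the products of polr2d and polr2g, was higher in cadmium 2 in both genes. The level of polr2d was -0.0021 in control 2, -0.19 in control 3, 0.011 in cadmium 1 and 0.18 in cadmium 2, with all 4 arrays above 0 and a difference of 0.20 ± 0.12. For polr2g the levels were -0.12, -0.22, -0.13 and 0.47, with a difference of 0.34 ± 0.23, and cadmium 1 lay between the controls. The assembly partners polr2c and polr2j differed by -0.0019 ± 0.12 and 0.093 ± 0.12. For polr2i, a subunit involved in accuracy of transcription, the difference was 0.068 ± 0.15. The polymerase-associated repressor gene polr2m was at 0.00053 ± 0.10.

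Polymerase III genes had a median of 0.11 over 8 genes, 7 of them above 0. The largest subunit gene polr3a (Entrez Gene 572258) was at 0.0070 in control 2, -0.10 in control 3, -0.054 in cadmium 1 and 0.15 in cadmium 2, with a difference of 0.093 ± 0.11. Its catalytic partner polr3b took the opposite order in the cadmium RNAs, with -0.047, -0.050, 0.30 and -0.20 and a difference of 0.10 ± 0.20. The controls of polr3b lay close together between them. Without cadmium 2, polr3b was the 1 member with an unadjusted p under 0.05 in limma (0.0259, adjusted p = 0.842), where 4.96% of all genes were.

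Initiation subunits of polymerase III also differed among themselves. The dimer partners polr3d and polr3e, which resemble TFIIF in other species, were both highest in cadmium 2. For polr3d the levels were -0.10, -0.20, -0.30 and 0.59 in controls 2 and 3 and cadmium 1 and 2, with a difference of 0.29 ± 0.33. For polr3e the difference was 0.16 ± 0.19, with probes at -0.029 and 0.34. The paralogs polr3gla and polr3glb, related forms of 1 initiation subunit, lay on opposite sides at 0.12 ± 0.12 and -0.29 ± 0.23. The level of polr3glb was -0.013, 0.30, 0.12 and -0.40, so that cadmium 2 was the lowest RNA there. The remaining genes polr3c and polr3k, an initiation and a transcript-cleavage subunit, were at 0.11 ± 0.11 and 0.11 ± 0.21.

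**Figure D2:**
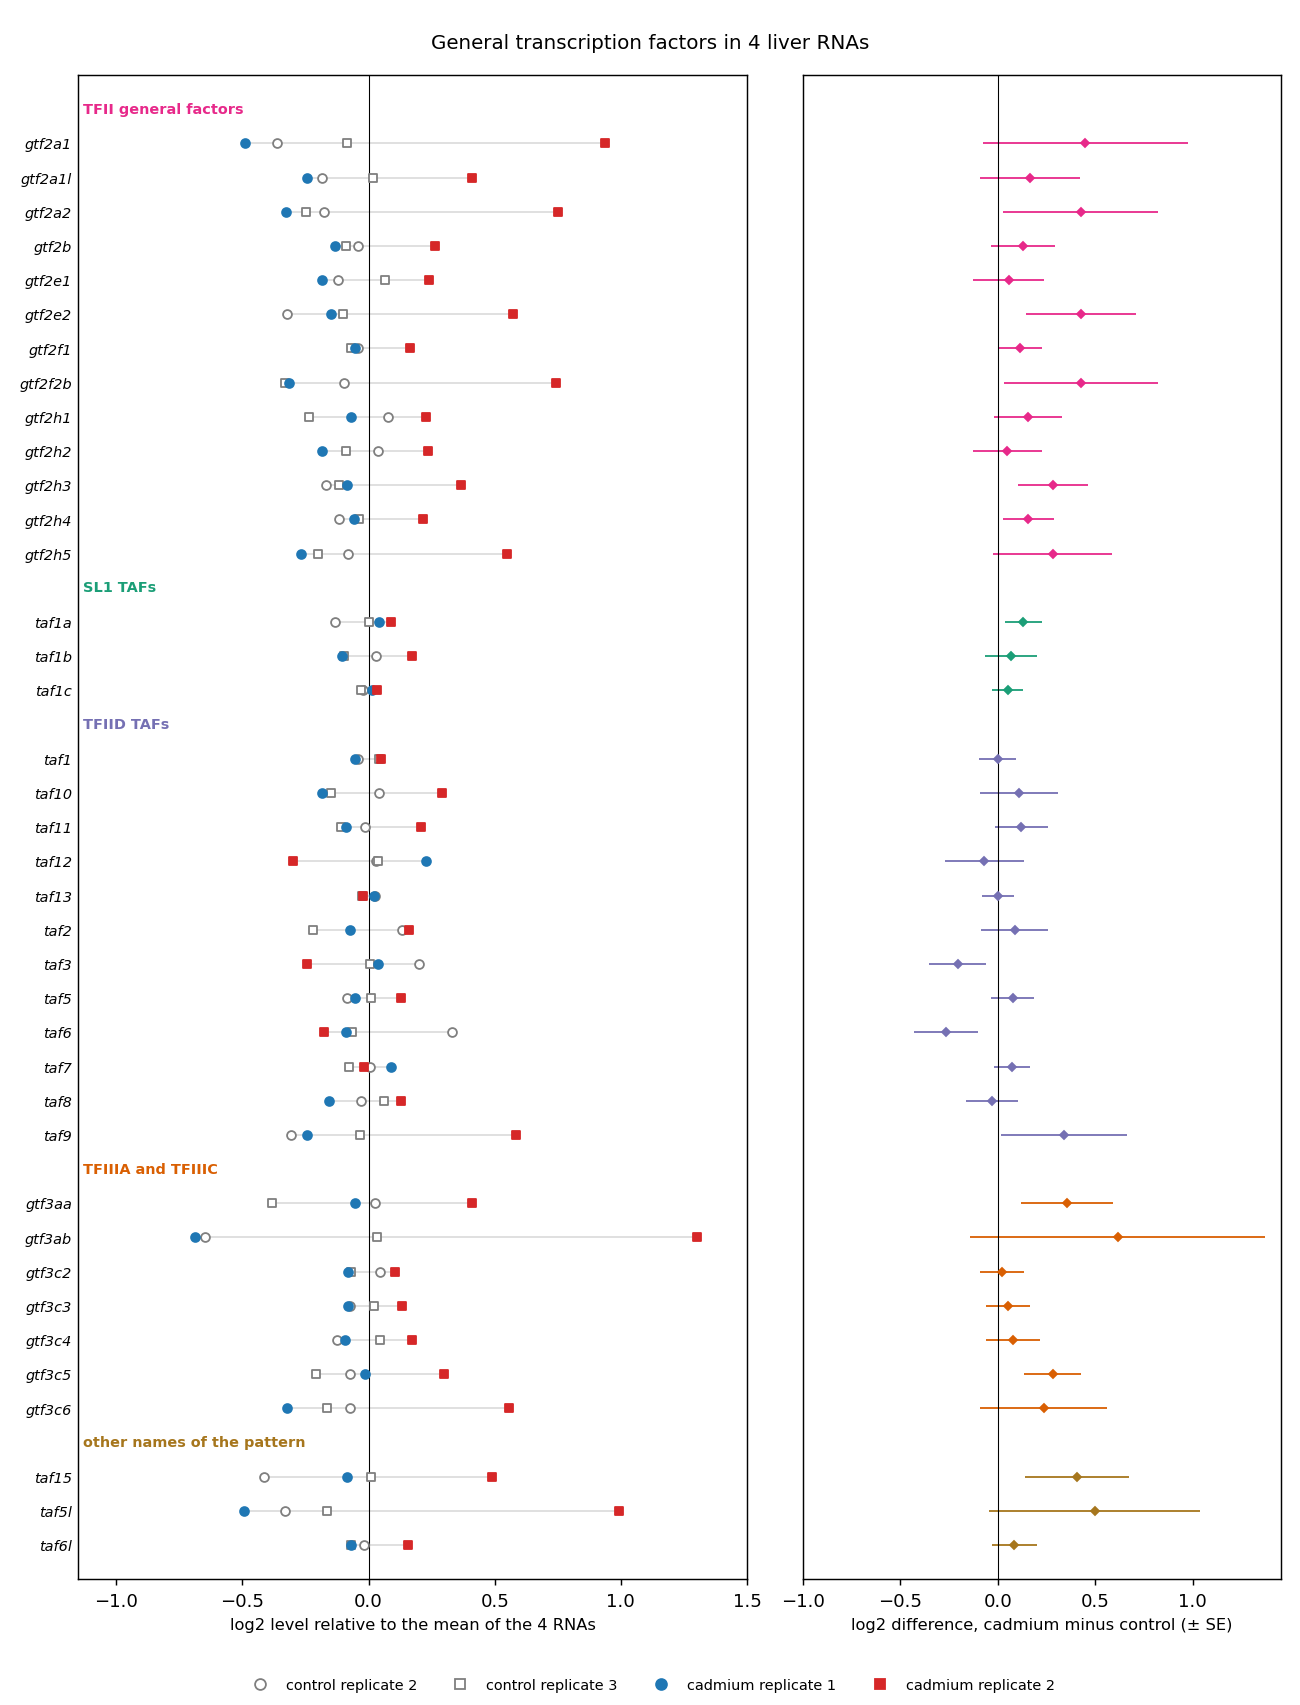
Left, log2 level of each general transcription factor gene in the 4 liver RNAs, relative to their mean, by complex. Right, the log2 difference of cadmium minus control with its SE (2 RNAs per group). Cadmium replicate 2 is the highest RNA in all 13 TFII genes and all 7 TFIIIA and TFIIIC genes, against 38.7% of all genes. The widest spread is that of gtf3ab, from -0.69 to 1.30.

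The TFII factors all had differences above 0, from 0.049 (gtf2h2) to 0.45 (gtf2a1) with a median of 0.17 over 13 genes. All 13 were highest in cadmium 2 (against 38.7% of all genes), and 7 of the 13 were lowest in cadmium 1 (53.8%, against 25.8%). None had all 4 arrays above 0, where 7.99% of all genes did, a share at which few of 13 would be awaited. The class median was -0.12 in control 2, -0.089 in control 3, -0.18 in cadmium 1 and 0.37 in cadmium 2, so a single RNA carried the shift.

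TFIIA, which steadies the TATA-binding protein on DNA, is made from the products of gtf2a1 and gtf2a2. The level of gtf2a1 was -0.36 in control 2, -0.084 in control 3, -0.49 in cadmium 1 and 0.94 in cadmium 2, and that of gtf2a2 was -0.17, -0.25, -0.33 and 0.75. Cadmium 1 was the lowest RNA and cadmium 2 the highest in both. Their differences were 0.45 ± 0.52 and 0.42 ± 0.40, each with an SE close to or above its value. For gtf2a1l, a TFIIA-like gene known from germ cells in mammals and frogs, the levels were -0.18, 0.017, -0.24 and 0.41.

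TFIIE and TFIIF, which act with polymerase II at the start site, were again highest in cadmium 2. The level of gtf2e2 was -0.32 in control 2, -0.10 in control 3, -0.15 in cadmium 1 and 0.57 in cadmium 2, with a difference of 0.43 ± 0.28. For gtf2f2b the levels were -0.10, -0.33, -0.31 and 0.74, with a difference of 0.43 ± 0.39. The partner subunits were nearer to 0, with gtf2e1 at 0.055 ± 0.18 and gtf2f1 at 0.11 ± 0.11. TFIIB, encoded by gtf2b, was at 0.13 ± 0.16.

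TFIIH, which opens the promoter and phosphorylates the polymerase tail, contributed 5 members. The gene gtf2h3 was at -0.17 in control 2, -0.12 in control 3, -0.085 in cadmium 1 and 0.37 in cadmium 2. The groups did not overlap, though cadmium 1 was near the controls, and the difference was 0.28 ± 0.18. For gtf2h4 the levels were -0.12, -0.039, -0.058 and 0.21, with a difference of 0.16 ± 0.13. The others were gtf2h5 at 0.28 ± 0.30, gtf2h1 at 0.16 ± 0.17 and gtf2h2 at 0.049 ± 0.18.

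The SL1 genes of polymerase I varied little, with a median of 0.068 over 3 genes. All 4 arrays were above 0 for taf1a (0.13 ± 0.10) and taf1c (0.051 ± 0.081), as for 7.99% of all genes. In both genes the cadmium RNAs stood above the controls, as in 11.7% of all genes, by a small margin for cadmium 1. The level of taf1a was -0.13 in control 2, 0.0034 in control 3, 0.040 in cadmium 1 and 0.091 in cadmium 2. For taf1b the difference was 0.068 ± 0.13, with its 4 probes on both sides of 0.

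TFIID TAFs had a median of 0.037 over 12 genes, with 7 above 0 and 5 below. That median was -0.042 without cadmium 2 and 0.083 without cadmium 1. The scaffold gene taf6 was at 0.33 in control 2, -0.065 in control 3, -0.089 in cadmium 1 and -0.18 in cadmium 2. All 4 arrays were below 0 and the groups did not overlap, but control 2 alone stood apart. The difference of taf6 was -0.27 ± 0.17, and without control 2 it was -0.068. For taf3, which recognises a promoter histone mark, the levels were 0.20, 0.0071, 0.037 and -0.24 with a difference of -0.21 ± 0.15.

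On the higher side, taf9, which pairs with taf6 in the complex, was at -0.31 in control 2, -0.032 in control 3, -0.24 in cadmium 1 and 0.58 in cadmium 2. The difference of taf9 was 0.34 ± 0.32, and cadmium 2 was the only RNA above 0. The gene taf11 was at 0.12 ± 0.14, with levels of -0.014, -0.11, -0.087 and 0.21. The remaining 8 TFIID genes lay between -0.069 (taf12) and 0.11 (taf10). Among them the largest TAF gene, taf1, was at -0.0013 ± 0.093 and taf13 at 0.00046 ± 0.084. The order of the RNAs was turned in taf12, with 0.23 in cadmium 1 and -0.30 in cadmium 2.

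TFIIIA and TFIIIC genes had a median of 0.24 over 7 genes, all above 0 and all highest in cadmium 2. Of all genes, 56.9% were above 0 and 38.7% highest in cadmium 2. TFIIIA binds the 5S ribosomal RNA gene, and in frog oocytes it also stores 5S RNA. Of the paralogs, gtf3ab (Entrez Gene 100037394) showed the widest spread of all members. Its level was -0.65 in control 2, 0.032 in control 3, -0.69 in cadmium 1 and 1.30 in cadmium 2. Cadmium 1 was the lowest and cadmium 2 the highest RNA, so the difference of 0.62 ± 0.76 had an SE above its value. The 3 probes were close, at 0.55, 0.62 and 0.68, and on array 4 they read 1.86, 1.91 and 1.91.

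The paralog gtf3aa (Entrez Gene 445389) took another order, with 0.026 in control 2, -0.38 in control 3, -0.055 in cadmium 1 and 0.41 in cadmium 2. Control 3 was its low RNA, and the difference was 0.35 ± 0.23. In TFIIIC, which recruits TFIIIB to transfer RNA genes, gtf3c5 had all 4 arrays above 0 and levels of -0.073, -0.21, -0.015 and 0.30. The difference of gtf3c5 was 0.28 ± 0.15, and its probes were at 0.27 and 0.30. For gtf3c6 the levels were -0.073, -0.16, -0.32 and 0.56 with a difference of 0.24 ± 0.33, and its probes stood apart at 0.045 and 0.43. The genes gtf3c2, gtf3c3 and gtf3c4 lay between 0.021 and 0.079.

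The name rule also took 3 genes that are not general factors in the strict sense. The RNA-binding protein gene taf15 was at -0.41 in control 2, 0.0084 in control 3, -0.084 in cadmium 1 and 0.49 in cadmium 2, with all 4 arrays above 0 and a difference of 0.40 ± 0.27. The histone acetylase complex genes taf5l and taf6l were at 0.50 ± 0.54 and 0.086 ± 0.12. For taf5l the levels were -0.33, -0.16, -0.49 and 0.99, so cadmium 1 and cadmium 2 were again the extremes. Its TFIID relative taf5 was at 0.076 ± 0.11.

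The cadmium RNAs differed from each other in many members. The median size of the difference between cadmium 1 and cadmium 2 was 0.30 over the 66 members, against 0.16 over all genes. Between the control RNAs it was 0.14 over the members and 0.11 over all genes. Array noise enters both kinds of difference equally in this loop. Cadmium 2 was the highest RNA in 50 of 66 members (75.8%), against 38.7% of all genes. Cadmium 1 was the lowest in 20 members (30.3%), against 25.8%.

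Set against the mean of both controls, cadmium 2 was at least 0.5 higher in 19 members (28.8%, against 9.58% of all genes). Cadmium 1 reached this in 0 members, against 1.16% of all genes, and stood above the control mean in 32 (48.5%, against 47.5%). With cadmium 1 left out, limma called 14 members (21.2%), all higher, against 6.88% of all genes called higher. In that fit cadmium 2 alone stood for the treatment and was assumed to vary like the controls. Over the members, the cadmium RNAs differed more from each other (median size 0.30) than the controls did (0.14). The calls therefore describe 1 RNA and do not test cadmium. The called genes, seen only in that fit, included gtf3ab (1.61), taf5l (1.24), gtf2a1 (1.16), polr1d (0.97), gtf2a2 (0.97), gtf2f2b (0.96) and polr1e (0.89). The others were gtf2e2 (0.79), polr1h (0.77), taf9 (0.75), polr3d (0.74), gtf2h5 (0.69), gtf3c6 (0.68) and polr2g (0.64). By class, the median of cadmium 2 minus the control mean was 0.67 for polymerase I and 0.65 for the subunits shared by I and III. It was 0.16 for the common subunits, 0.11 for polymerase II and 0.19 for polymerase III. Over the 38 factors it was 0.27, and over all genes 0.020. The factor classes differed, with 0.49 for TFII, 0.44 for TFIIIA and TFIIIC, 0.16 for SL1 and 0.083 for TFIID TAFs. For the 3 other names it was 0.69. The genes gtf2a1, gtf2a2 and gtf2h5 were singled out here after their values were seen.

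**Figure D3:**
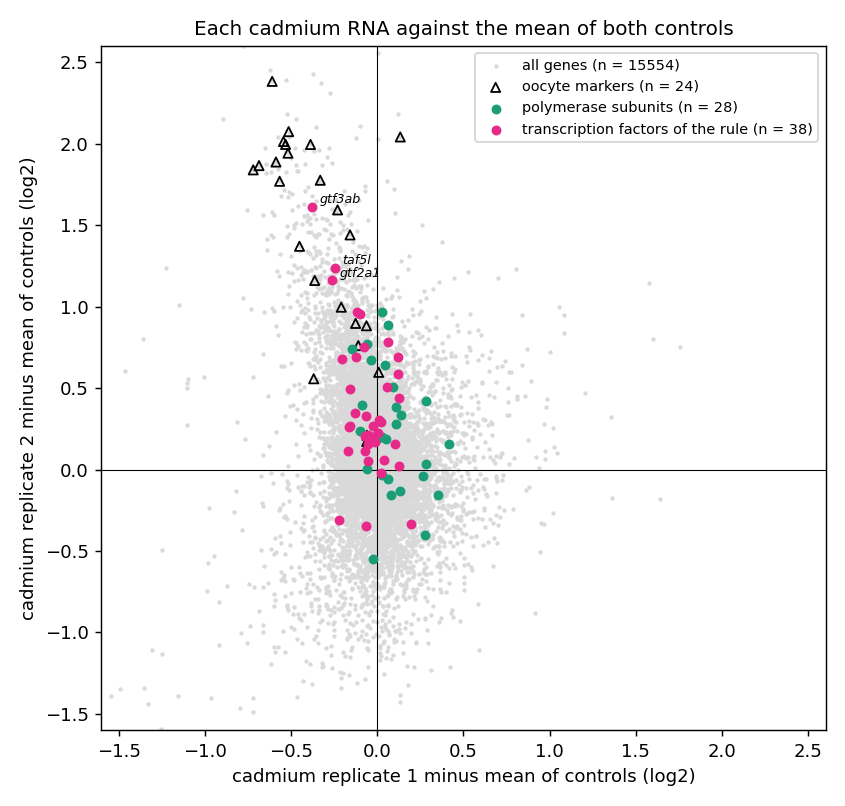
Each point is a gene, with cadmium replicate 1 minus the mean of both controls on the x axis and cadmium replicate 2 minus the same mean on the y axis (log2). On the y axis the members reach from polr3glb at -0.55 to gtf3ab at 1.61. There 54 of 66 lie above 0 (81.8%, against 55% of all genes), as do the 24 oocyte markers. The members stay between -0.38 and 0.42 on the x axis, and 24 of all genes fall outside the axes.

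Markers of oocytes were highest in the same RNA as most members. All 24 measured oocyte markers, such as the egg coat genes zp3 and zp2.3 and the germ cell gene dazl, were highest in cadmium 2, and 20 were lowest in cadmium 1. Their median level was -0.41 in control 2, -0.16 in control 3, -0.63 in cadmium 1 and 1.33 in cadmium 2, ranging from -0.84 to 0.26 over the controls and from 0.14 to 1.94 in cadmium 2. The same order of RNAs was seen in gtf3ab (-0.65, 0.032, -0.69 and 1.30) and gtf2a1 (-0.36, -0.084, -0.49 and 0.94). It was also seen in gtf2a1l, gtf2e1, gtf3c3, taf1, taf5l and taf8, but not in most members. Some of these orders rest on small gaps between cadmium 1 and control 2, as in gtf3c3 (-0.080 and -0.073) and taf1 (-0.052 and -0.041). The genes were named after their values were seen. The share of all genes with this order was not counted, so the number of such members cannot be weighed. Cadmium 1 was the lowest RNA in 20 of 66 members (30.3%), against 25.8% of all genes. By kind, these were 3 of 28 polymerase subunits (10.7%) and 17 of 38 factors (44.7%). The part of oocyte RNA in the members' values was not tested, and in a bulk RNA more cells of a type and more RNA per cell cannot be told apart.

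Other markers did not take that order. The median over 16 hepatocyte markers was -0.0048, -0.028, 0.078 and -0.0096 in control 2, control 3, cadmium 1 and cadmium 2. Pancreas markers (18) differed mainly between the controls, with 0.70 in control 2 and -0.86 in control 3. Leukocyte markers (9) were at -0.28 in cadmium 2 and between 0.033 and 0.062 in the other RNAs, and red cell markers (5) ranged from -0.13 in cadmium 2 to 0.29 in control 2. Whether any of these marker lists bears on the members' values was not tested.

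**Figure D4:**
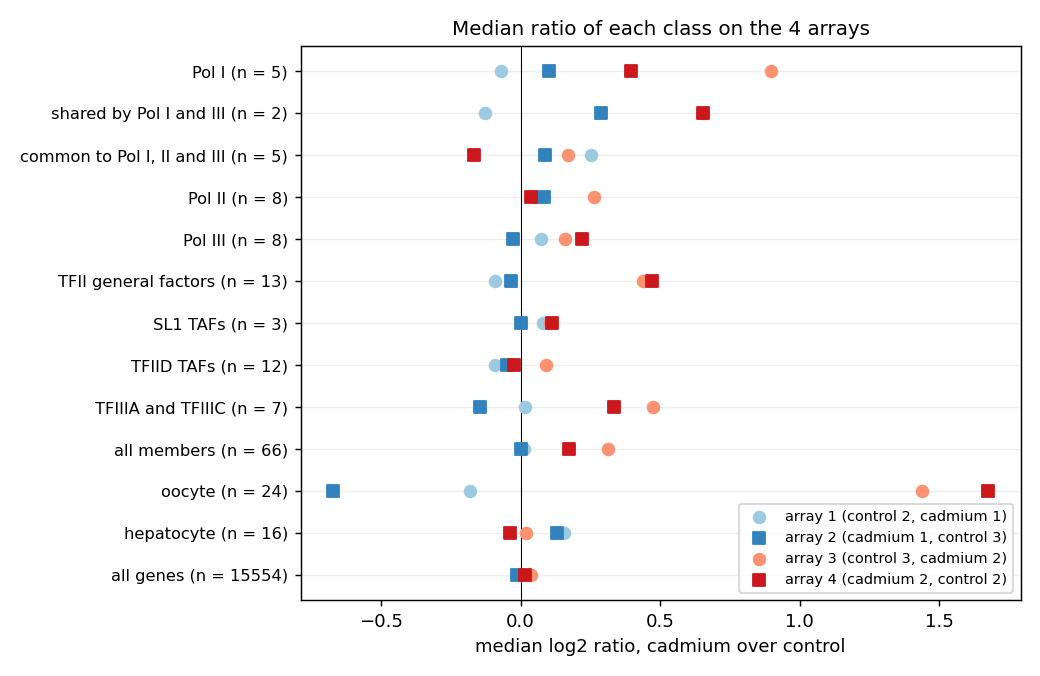
Median log2 ratio of cadmium over control on each array, by class of members, with marker lists and all genes for comparison. Arrays 3 and 4, which carry cadmium replicate 2, read 0.90 and 0.40 for Pol I and 0.44 and 0.47 for the TFII factors, while arrays 1 and 2 read -0.070 and 0.10, and -0.090 and -0.035.

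Related genes of the transcription machinery, from lists that the name rule does not take, numbered 93. Of these, 0 had an adjusted p under 0.05 in limma and 1 an unadjusted p under 0.05 (1.08%, below the 2.02% of all genes). The TATA-binding protein gene tbp was at -0.40 in control 2, -0.20 in control 3, -0.67 in cadmium 1 and 1.27 in cadmium 2, with a difference of 0.60 ± 0.70. For its paralog tbpl2, known from oocytes in other vertebrates, the levels were -0.26, -0.17, -0.23 and 0.65. The remaining TFIIH subunit genes were above 0 in 5 of 5 cases with a median of 0.29, and the largest t values were those of the helicase gene ercc2 (0.26 ± 0.19) and the cyclin gene ccnh (0.32 ± 0.24). One of the 5, ercc3, lay near 0 (0.0012 ± 0.12), with 0.12 in cadmium 1 and -0.12 in cadmium 2. Genes of TFIIIB, of the SNAPc complex and of polymerase III regulation were above 0 in 11 of 11 cases with a median of 0.13. Among them were brf1a (0.31 ± 0.14) and snapc1b (0.25 ± 0.15), while maf1a (0.0057) and brf1b (0.00088) lay near 0. For comparison with these and the lists below, 56.9% of all genes were above 0. Against the control mean, the TFIIH list had medians of 0.0053 in cadmium 1 and 0.59 in cadmium 2. For the TFIIIB and SNAPc list these were -0.033 and 0.33.

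Mediator genes, which link activators to polymerase II, had a median of 0.074 over 28 genes, 22 above 0, with med6 at 0.21 ± 0.10 and med22 at 0.23 ± 0.12. Elongation factor genes had a median of 0.057 over 27, 20 above 0, with ccnt2b at 0.43 ± 0.19 and supt5h at -0.24 ± 0.15. Against the control mean, Mediator medians were -0.061 in cadmium 1 and 0.21 in cadmium 2, and elongation medians 0.040 and 0.075. Polymerase I factors (median 0.095, 3 of 5 above 0) had their largest t values in mybbp1a at 0.29 ± 0.17 and nolc1 at 0.12 ± 0.16. Genes of polymerase assembly and tail processing (median 0.089, 5 of 8 above 0) had theirs in rprd1b at 0.19 ± 0.13 and uri1 at -0.17 ± 0.12.

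Mitochondrial transcription genes had a median difference of 0.20 over 6 genes and similar median levels in both cadmium RNAs. The median level was -0.043 in control 2, -0.15 in control 3, 0.11 in cadmium 1 and 0.10 in cadmium 2. On all 4 arrays, 4 of 6 genes were above 0, against 7.99% of all genes. The other 2 were below 0 and did not have similar cadmium RNAs. For tfam the difference was -0.017 ± 0.23, with 0.29 in cadmium 1 and -0.31 in cadmium 2. For mterf2 it was -0.069 ± 0.13, with 0.080 and -0.15. The terminator family gene mterf3 was at -0.17, -0.24, 0.13 and 0.28, with a difference of 0.41 ± 0.10. The unadjusted p of mterf3, 0.0151 in limma, did not pass adjustment. For tfb1m, a mitochondrial ribosomal RNA methylase related to transcription factors, the difference was 0.25 ± 0.11.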

How the data were processed

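Total RNA, extracted with Trizol from 4 liver samples, was labelled by version 5.7 of Agilent's 2-colour protocol, per the labels' protocols. The authors deposited log2 ratios of the dyes for 43603 probes and 4 arrays, with 0 missing values; the submitters' processing notes name limma. How background was corrected, and which normalization, filters and version were used, is not given in the sources used here. The log base was read from the largest size, 6.14. Column medians lay between -0.00045 and 0.0037, so the arrays are centred, by a method not stated.

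Of the probes, 23717 carried 1 gene symbol, 0 several and 19886 none. All 66 members' gene identifiers were found in RefSeq's table. Array ratios were averaged over probes, then solved for 3 RNA differences and 1 dye effect. Cadmium and control were compared with lmFit and eBayes (limma 3.58.1, R 4.3.3), two-sided, Benjamini-Hochberg over 15554 genes, threshold 0.05. SEs carry 2 residual and 1.91 prior degrees of freedom. The fit was tested on simulated data. In this loop array noise weighs more on differences within a group than between groups. The part of each SE that comes from array noise is therefore too large, and the p-values lean to the large side. Arrays of one dye orientation correlated at -0.043 (1 and 3) and -0.22 (2 and 4).

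Members and lists were chosen with earlier results of these data known. Named genes were the 2 largest subunits of each polymerase, the 4 members per class with the largest moderated t in size, and 2 per related list; other members complete the classes. Alternatives left out each RNA, took arrays as units, rescaled the arrays, took probe medians and left out the 25% of genes of lowest variance. No intensities or sequences were used, and no coordinates are given because the files name no genome build.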

Additional observations from a re-analysis of the deposited data

How the results depend on the processing

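The call of no member held with arrays as units, with or without a dye term, after both rescalings, with probe medians, without the genes of lowest variance, and without each RNA except cadmium 1, where members called ranged from 0 to 14 over the RNAs left out and genes called from 0 to 1456. Genes called numbered 2 with arrays as units without a dye term and 2 without the genes of lowest variance. With arrays as units in limma and a dye term, 1 of 66 members (polr2k) had an unadjusted p under 0.05, beside 778 of 15554 genes. Without a dye term these were 4 members (polr1c, polr2k, polr2d and gtf3c5), beside 1109 genes. Both fits count arrays that share an RNA as independent, which they are not. Of the 66 members, 33 turned their sign without cadmium 2, 7 without cadmium 1, 5 without control 2 and 8 without control 3, and 3 and 5 after scaling and quantile normalization. Leaving out 1 RNA, class medians ranged from 0.065 to 0.67 for Pol I, 0.082 to 0.65 for the subunits shared by Pol I and III, 0.030 to 0.28 for the common subunits, 0.052 to 0.12 for Pol II, 0.0098 to 0.19 for Pol III, -0.099 to 0.49 for TFII, 0.041 to 0.16 for SL1, -0.042 to 0.083 for TFIID, -0.055 to 0.44 for TFIIIA and TFIIIC, and -0.028 to 0.69 for the 3 other names. Quantile normalization gave 0.049 for Pol II. Among the members named by rule, those that turned when 1 RNA was left out ranged from -0.038 to 0.67 (polr1b), -0.060 to 0.77 (polr1h), -0.031 to 0.028 (polr2b), -0.17 to 0.11 (polr2f), -0.0041 to 0.19 (polr2j), -0.0082 to 0.19 (polr3a), -0.16 to 0.35 (polr3b), -0.15 to 0.74 (polr3d), -0.099 to 0.96 (gtf2f2b), -0.38 to 1.61 (gtf3ab), -0.20 to 0.68 (gtf3c6), -0.027 to 0.27 (taf11), -0.069 to 0.21 (taf1b), -0.25 to 1.24 (taf5l), -0.028 to 0.20 (taf6l) and -0.075 to 0.75 (taf9). Others also turned without cadmium 2, among them gtf2a1 (-0.26), gtf2a2 (-0.12), gtf2h5 (-0.13) and polr2eb (0.28). Scaling gave polr2b 0.0035 and quantile normalization 0.014. The cause was not tested. No paired analysis was possible because control and cadmium RNAs share only 1 replicate number. The files hold no signal over background, so dim probes could not be told from bright ones.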
